A study of Mus musculus with 4 samples.

Results

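The genes described here are the aminoacyl-tRNA synthetases of the mouse, taken by gene symbol from a table of 52459 genes counted in young and old intestinal stem cells (ISCs). The list holds 37 genes, and every one of them is a row of the table. It comprises 17 cytosolic synthetase genes, 2 whose products work in both the cytosol and the mitochondrion (Gars and Kars), 16 mitochondrial synthetase genes, whose symbols end in 2, and the scaffold genes Aimp1 and Aimp2. The cytosolic methionine gene Mars is in the table but not on this list.

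Aminoacyl-tRNA synthetases join each amino acid to the tRNAs that carry it, a step on which the accuracy of translation depends. Most amino acids have a pair of enzymes encoded by separate nuclear genes, one for cytosolic and one for mitochondrial protein synthesis, while several cytosolic enzymes are held with scaffold proteins in the multi-synthetase complex. Crypt base ISCs divide throughout life, and transcription of many cytosolic synthetase genes is known to be raised by the factor ATF4 when amino acids run short or tRNAs are left uncharged.

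The FL data set compared wild-type (WT) C57/Bl6 female mice at 2 ages, without treatment. ISC_2mth held 2 libraries from mice of 2 months (young ISCs) and ISC_22mth held 2 from mice of 22 months (old ISCs), each library made from a pool of 5 animals. Small intestinal ISCs were sorted by the SM6 strategy, as EPCAM+, EPHB2high, CD44high, CD166+, CD24med and GRP78low cells without CD31 and CD45, and their RNA was copied along the whole transcript by SPIA amplification. Pooling leaves no value for a single animal, so p-values measure the spread between pools.

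The libraries held between 11662654 and 15975698 counted reads, and Lgr5, the defining ISC marker, had 3599 and 3236 reads in young and 2758 and 2518 in old pools. Of 16 ISC markers tested, 6 had a positive and 10 a negative log2 fold change, with summed counts of 59379 and 58395 in young and 52598 and 52637 in old pools, and 1 passed the test, the sorting marker Cd24a, higher in old pools (0.68, FDR 0.0035, edgeR). Mitochondrially encoded genes took 62.6% and 65.7% of the reads in young and 73.8% and 72.9% in old pools, which left between 3852178 and 4593004 reads on all other genes. Of 10 enterocyte markers, 4 were higher in old pools past the test, and 6 had both old pools above both young pools. Their summed counts were 10159 and 12371 in young against 17659 and 15038 in old pools. For Paneth markers, 2 of 9 tested passed, with summed counts of 13817 and 10988 against 27756 and 9958. Of 4 tuft markers tested, 2 were higher in old pools, Dclk1 (4 and 4 reads in young, 42 and 19 in old) and Ptgs1 (0 and 0 in young, 38 and 20 in old), while Il17rb had 39 and 50 reads in young and 30 and 32 in old and did not pass. Of 20 leukocyte markers 3 reached the level needed for testing and 2 of these were higher in old pools, Itgam (148 and 196 reads in young, 254 and 252 in old) and Ccr2 (0 and 0 in young, 13 and 16 in old). The other, Cd68, had 63 and 41 reads in young and 30 and 22 in old and did not pass, and Cd3d, Cd4, Cd79a and Adgre1 had 0 reads in all pools. Dclk1, Ptgs1 and Ccr2 met the requirement for testing only through old pools. With offsets for GC content and length, the calls of the Paneth markers (Defa17 and Defa24) and of Dclk1, Itgam and Ccr2 were lost (FDR 0.0516, 0.107, 0.0506, 0.0534 and 0.0662, edgeR). The part of these other cell types and of the mitochondrial share in the results on synthetases was not tested.

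Sequences from the synthetase genes are shown for the results that they bear on. The core of the amino acid response element bound by ATF4, TGATGNAA on either strand, was searched in RefSeq promoter windows (GRCm38.p6, 250 bases before to 50 bases after the transcription start), which were found for 28 of the 37 genes. Windows were not matched for Cars, Hars, Lars, Nars, Rars, Vars, Wars, Hars2 and Pars2. The core was present in 5 of the 12 cytosolic and dual genes matched (41.7%), in 0 of 14 mitochondrial genes and in 0 of 2 scaffold genes, beside 1219 of 27025 genes overall (4.51%). A window of each of the 5 genes is printed 5′ to 3′ on the strand of the gene, with the core or its reverse complement in capitals.
Aars, chr8:111033840-111033869 (+): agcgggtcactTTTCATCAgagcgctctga
Gars, chr6:55037960-55037989 (+): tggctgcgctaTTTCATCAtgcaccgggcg
Iars, chr13:49682126-49682155 (+): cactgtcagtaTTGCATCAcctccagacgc
Tars, chr15:11399655-11399684 (-): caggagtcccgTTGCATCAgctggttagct
Yars, chr4:129189895-129189924 (+): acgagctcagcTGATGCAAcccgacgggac

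A match in these letters is a description of the window and not evidence that a factor binds there. The other sequence is the stretch that Lars2, the gene of the mitochondrial leucine enzyme, shares with Gm15564, a locus counted here with the ribosomal RNA-like loci. All 30 bases are in capitals because all are common to both genes.
Lars2, chr9:123462059-123462088 (+): GCGTTGGATTGTTCACCCACTAATAGGGAA

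The synthetases were expressed throughout, at levels that spanned a wide range. All 37 genes exceeded 5 reads and 1 CPM, a count divided by the size of its library, in some pool. That was the requirement for testing, which 13692 of the 52459 genes met. The counts of the 37 ran from 30 to 9969 reads in a pool. Levels were compared between genes as normalized CPM per kb of exon, averaged over the 4 pools. The median was 6.67 for the 19 cytosolic and dual genes and 2.05 for the 16 mitochondrial genes.

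Among cytosolic genes Farsb, the beta subunit of the phenylalanine enzyme, had the highest level at 30.2 normalized CPM per kb, followed by Nars (asparagine) at 25.0, Rars (arginine) at 18.5 and Iars (isoleucine) at 15.3. Cars, the cysteine enzyme, had the lowest at 0.828, with 67 and 103 reads in young and 61 and 70 in old pools. Of the genes that work in both compartments, Kars (lysine) stood at 10.8 and Gars (glycine) at 8.73. The mitochondrial group ran from 0.729 for Aars2 (alanine), which had 61 and 61 reads in young and 42 and 30 in old pools, to 7.56 for Iars2 (isoleucine), with Lars2 far above at 48.3. Exon length here merges all annotated transcripts of a gene, so a gene with long minor transcripts appears lower on this scale.

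**Figure D1:**
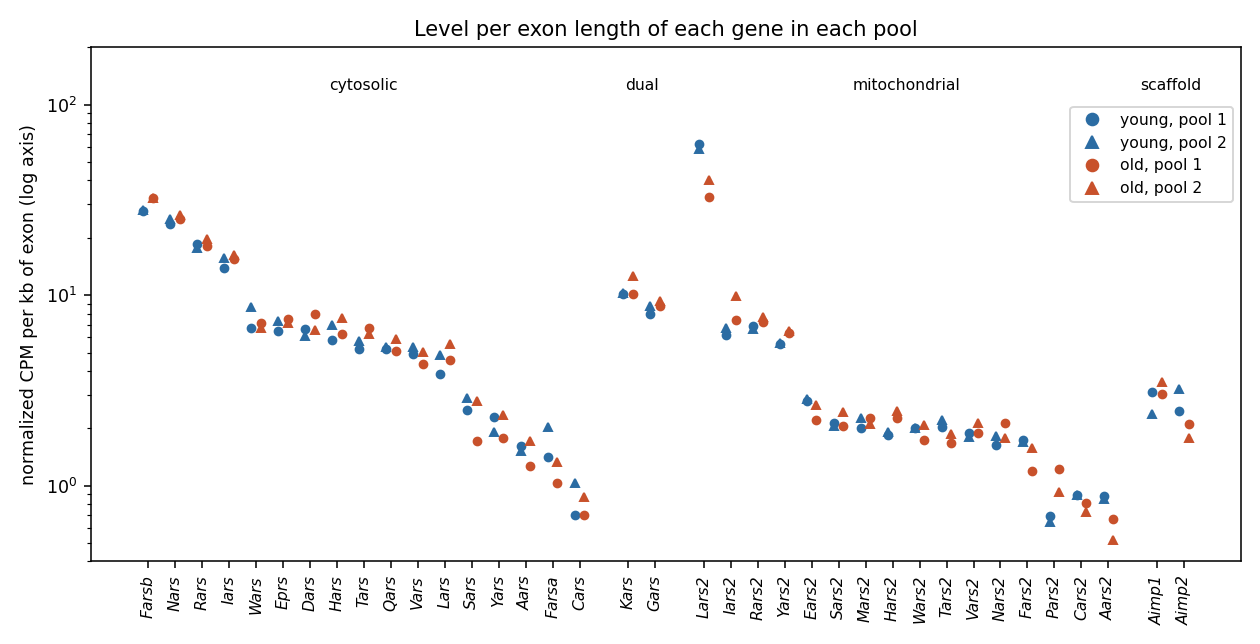
Normalized CPM per kb of exon (log axis) for each of the 37 genes, with 1 point for each of the 4 pools, young in blue and old in orange, grouped by compartment and ordered by mean level. Lars2 stands above every other gene in all pools, though in ISC_22mth replicate 1 it is close to Farsb (32.7 against 32.5), and the young and old points of most other genes lie close together.

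In 14 comparisons of a cytosolic with a mitochondrial gene for the same amino acid, the cytosolic gene had the higher level in 10, with a median ratio of 2.32. Fars2 entered both against Farsb and against Farsa, and Eprs was not compared with Ears2 or Pars2. The ratio was 19.5 for Farsb over Fars2 and 13.5 for Nars over Nars2. It was near 1 for serine, where Sars over Sars2 gave 1.13, and for cysteine, where Cars over Cars2 gave 0.993. The order was inverted for tyrosine, with Yars over Yars2 at 0.349, and most of all for leucine, with Lars over Lars2 at 0.0974. Farsa, the alpha subunit of the phenylalanine enzyme, differed from its partner Farsb in standing at 1.45 normalized CPM per kb, close to Fars2 at 1.55.

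With age, 1 synthetase gene changed past the threshold, and for 33 of the 37 the 95% interval of the fold change excluded a 2-fold difference in either direction. Lars2 fell in old ISCs, and no member rose at FDR 0.05 (edgeR quasi-likelihood test, Benjamini-Hochberg adjustment over all genes tested). The 1 call among 37 members (2.7%) stood beside 309 calls among 13692 genes tested (2.26%). By direction, 0 of 37 were higher beside 1.63% of all genes, and 1 of 37 was lower beside 0.628%. At an unadjusted p under 0.05 there were 2 members, Lars2 and Iars2, or 5.41% beside 16.9% of all genes. Lars2 was the 1 lower (2.7%, beside 7.65%) and Iars2 the 1 higher (2.7%, beside 9.26%). In bulk RNA, fewer cells with a transcript and less of it in each cell cannot be told apart.

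For 9 members both old pools exceeded both young ones (24.3%, beside 24% of all genes tested), and for 8 they fell short of them (21.6%, beside 23.6%). The 9 were Farsb, Nars, Tars, Hars2, Iars2, Pars2, Rars2, Vars2 and Yars2. The 8 were Farsa, Aars2, Cars2, Ears2, Fars2, Lars2, Tars2 and Aimp2, and the ages overlapped for the other 20. An exact permutation over 2 pools against 2 has 0.333 as its smallest p.

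The median log2 fold change, old against young, was 0.08 for the cytosolic and dual genes and 0.07 for the mitochondrial genes, beside -0.0049 for all genes tested. By sign, 12 of 19 cytosolic and dual genes and 9 of 16 mitochondrial genes had a positive value, and 15 of the 37 members were below 0 (40.5%, beside 50.5% of all genes tested). Both medians turned negative with counts scaled by their totals alone (-0.41 and -0.42), where the median of all genes was -0.50. Relative to that shift of all genes, Lars2 stood at -0.72 and Iars2 at 0.43. Without ISC_22mth replicate 2 the cytosolic and dual median was -0.0065 and the mitochondrial median 0.0015. With offsets for GC content and length they were 0.06 and 0.0012.

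**Figure D2:**
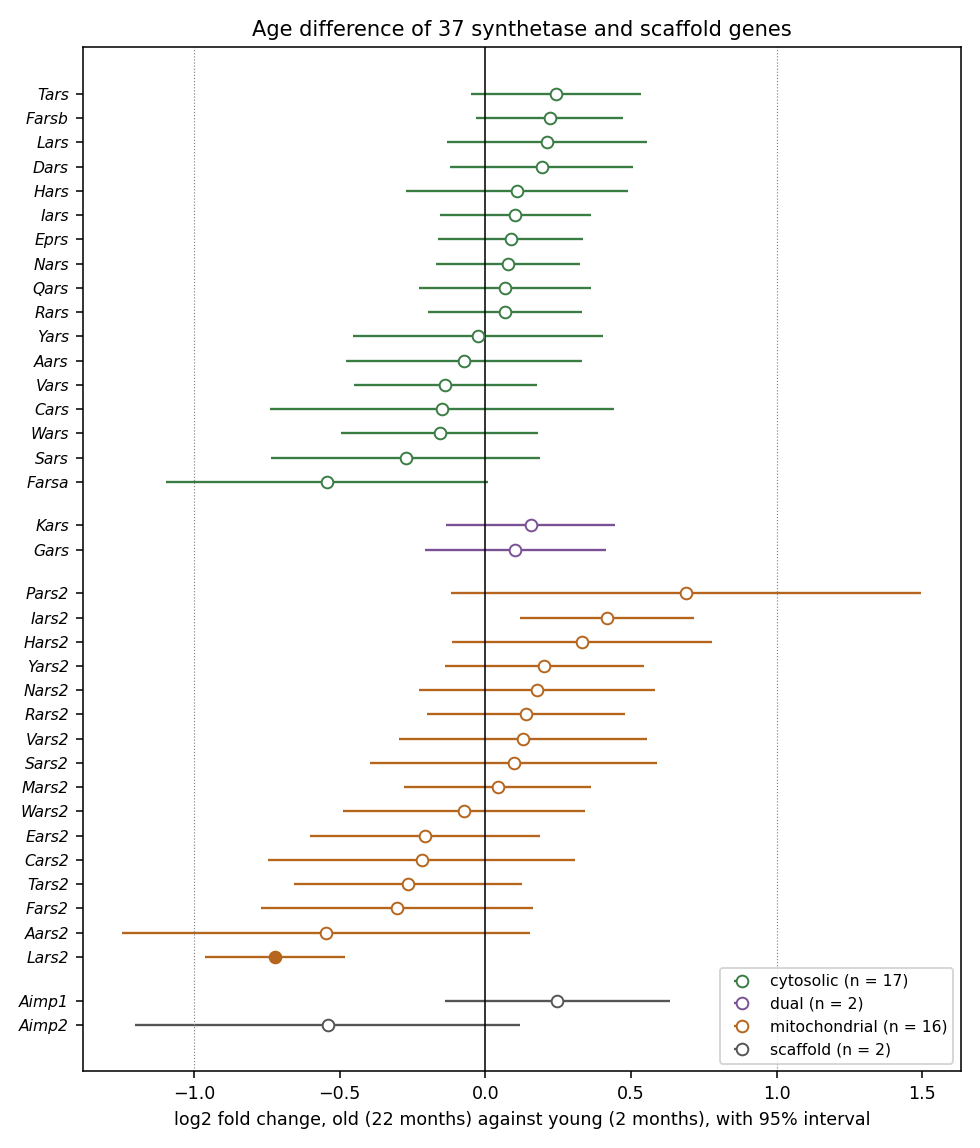
Log2 fold change of each of the 37 genes, old (22 months) against young (2 months), with its 95% interval from edgeR, coloured by compartment. The filled point is the only gene with FDR under 0.05, Lars2 at -0.72, and the dotted lines mark a 2-fold change.

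Lars2 (ENSMUSG00000035202.8, chr9:123366927-123462666, + strand, GRCm38) charges mitochondrial leucine tRNAs. Its normalized level was 688 and 647 CPM in young pools and 362 and 446 CPM in old pools. Both old pools were below both young pools, by more than the difference between pools of either age. The means were 667 ± 28.7 CPM in young and 404 ± 59.4 CPM in old ISCs (SD, n = 2 pools each).

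The log2 fold change of Lars2 was -0.72 (SE 0.11, FDR 0.0021, edgeR), with a 95% interval from -0.96 to -0.48. It was the most abundant transcript of the group by count as well as per length, above 99.7% of all genes tested. Of the reads on the 37 members, Lars2 took 41.7% (95% Wilson interval 41.1 to 42.3) and 38.7% (38.1 to 39.3) in young pools. In old pools the share was 26.1% (25.5 to 26.7) and 28.9% (28.2 to 29.5). Reads were amplified and carry no molecular identifiers, so these intervals cover counting error only. Without Lars2, the members' summed reads were 13948 and 15459 in young and 13563 and 13431 in old pools.

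Of 8 ribosomal RNA-like loci tested, 3 also fell in old ISCs and none rose past the threshold. By sign 5 were negative and 3 positive, and the positive ones, Gm24187 at 0.94, Gm37357 at 1.62 and n-R5-8s1 at 0.47 on the log2 scale, did not pass the test. Among those that fell, Gm15564 had 1491 and 1453 reads in young and 600 and 741 in old pools, a log2 fold change of -0.91 (SE 0.14, FDR 0.00152, edgeR). CT010467.1, annotated as ribosomal RNA, had 18775 and 14303 reads in young against 6131 and 7295 in old pools, with a log2 fold change of -1.08. Mir6236 fell by 2.03 on the log2 scale, from 2316 and 2133 reads to 410 and 523. For these 3 loci, as for Lars2, both old pools were below both young ones.

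Lars2 and Gm15564 are alike over 72 bases, of which 71 are identical. These bases lie in the 3′ untranslated region of the main Lars2 transcript, at positions 3278 to 3349 of 3894, and the printed 30 bases come from within an unbroken match of 52. Of all 50-base stretches in Lars2 transcripts, 22 of 11217 (0.196%) occur in annotated transcripts of another gene, 3 of them in Gm15564. Sequences outside the annotated transcripts were not searched, so this share does not cover them. No alignment to Mir6236 or CT010467.1 was found. The counts of Lars2 divided by those of Gm15564 gave 6.69 and 6.72 in young and 7.98 and 7.36 in old pools. The treatment of reads that map to several places is not given in the sources used here. Gene counts hold no read positions, so the share of Lars2 reads from this stretch, and its part in the fall, was not tested.

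**Figure D3:**
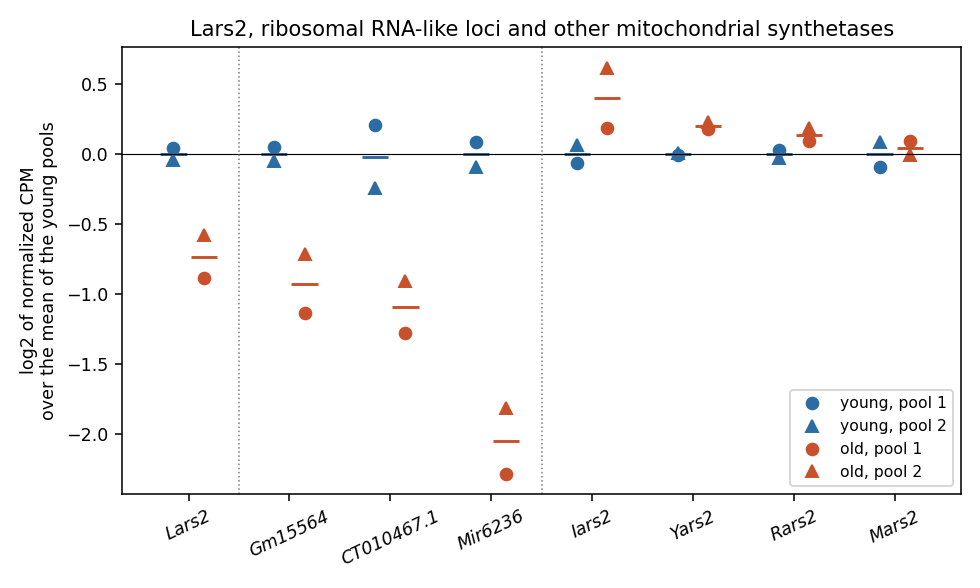
Log2 of normalized CPM over the mean of the young pools, with 1 point for each pool and a bar at the mean of each age, for Lars2, the 3 ribosomal RNA-like loci that passed the test (Gm15564, CT010467.1 and Mir6236), and the 4 mitochondrial synthetase genes next to Lars2 in normalized CPM. Lars2 and the 3 loci lie below 0 in both old pools, while Iars2, Yars2 and Rars2 lie above 0 and Mars2 spans it.

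Iars2 (chr1:185284726-185329396, - strand), the mitochondrial isoleucine enzyme, showed the opposite sign. Its levels were 54.9 and 60.0 CPM in young and 65.5 and 88.1 CPM in old pools. The old pools lay above the young ones but differed from each other by more than the gap between the means of the ages. The log2 fold change was 0.42 (SE 0.14) and missed the threshold (FDR 0.138, edgeR).

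The value of Iars2 rested on the second old pool. Without ISC_22mth replicate 1 it was 0.62 (FDR 0.00129, edgeR), past the threshold, and without ISC_22mth replicate 2 it was 0.19. Its exons overlap those of Rab3gap2 on the other strand over 2034 bases (22.9% of the exonic length), and the strand setting of the counting is not given in the sources used here. Rab3gap2 itself had a log2 fold change of 0.06 (FDR 0.914). The counts of Lars2 divided by those of Iars2 were 12.5 and 10.8 in young and 5.54 and 5.07 in old pools.

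No other mitochondrial synthetase passed the test. Pars2, the proline enzyme, had the largest positive value at 0.69, on 30 to 50 reads a pool (2.14 and 1.99 CPM in young, 3.78 and 2.87 CPM in old), with an FDR of 0.383 (edgeR). Aars2, at the other end, stood at 4.21 and 4.04 CPM in young and 3.18 and 2.46 CPM in old pools, with a log2 fold change of -0.55. These shallow genes had wide intervals that include 0, from -1.25 to 0.15 for Aars2.

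For 14 of the 16 mitochondrial genes the 95% interval excluded a 2-fold change in either direction, and for 6 it excluded a 1.5-fold change. Mars2, the methionine enzyme, had the value nearest to 0 in this group, at 22.6 and 25.5 CPM in young and 25.7 and 23.9 CPM in old pools. Without Lars2, the median of the other 15 genes was 0.10. Fars2 overlaps Nrn1 on the other strand over 501 bases (8.72% of its exonic length), so its value of -0.30 is uncertain for the same reason as that of Iars2. Nrn1 had a log2 fold change of -0.71 (FDR 0.122, edgeR), of the same sign, and its part in the value of Fars2 was not tested.

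None of the 19 cytosolic and dual genes changed past the threshold, with FDR values from 0.306 to 0.966 (edgeR). Their intervals excluded a 2-fold change for 18 genes and a 1.5-fold change for 16. The gene of lowest p was Farsa (chr8:84856989-84869257, + strand), with 6.42 and 9.21 CPM in young and 4.69 and 6.06 CPM in old pools. The log2 fold change of Farsa was -0.54 (SE 0.26, FDR 0.306, edgeR), on between 62 and 139 reads a pool. It was -0.26 without ISC_2mth replicate 2 and -0.78 without ISC_2mth replicate 1.

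Farsb, whose product pairs with that of Farsa to form the cytosolic phenylalanine enzyme, had the opposite sign. It stood at 72.2 and 73.8 CPM in young and at 85.2 and 85.0 CPM in old pools, a log2 fold change of 0.22 (SE 0.12, FDR 0.365, edgeR). Counts of Farsb divided by those of Farsa gave 11.3 and 8.01 in young and 18.2 and 14.0 in old pools. The ratio was thus higher in both old pools than in both young ones, and this difference was not tested as a ratio. Farsb exons overlap Sgpp2 on the other strand over 248 bases (9.47%).

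Tars, the threonine enzyme, had the largest positive value of the cytosolic group, at 30.9 and 33.9 CPM in young and 39.7 and 36.9 CPM in old pools (log2 fold change 0.24). Wars, the tryptophan enzyme, whose transcription is known to respond to interferon, stood at 23.3 and 30.0 CPM in young and 24.7 and 23.1 CPM in old pools. Its 95% interval ran from -0.49 to 0.18 on the log2 scale. Of 31 interferon-stimulated genes tested in the same fit, 3 rose (Ly6e, Oasl2 and Ifi44) and 1 fell (Irf1, called in 11 of 17 alternatives and not with offsets for GC content and length, FDR 0.0741, edgeR). Oasl2 and Ifi44 were high mainly in ISC_22mth replicate 1, with 863 and 224 reads there against 155 and 12 in the other old pool. Ifi44 and some others of the 31 met the requirement for testing only through that pool, so no median is given for them.

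Kars and Gars, which serve both compartments from 1 gene each, did not pass the test. Kars (chr8:111993443-112011323, - strand) had 45.1 and 45.8 CPM in young and 45.3 and 56.1 CPM in old pools, so that 1 old pool matched the young ones. Its log2 fold change was 0.16 (SE 0.14, FDR 0.608, edgeR), and it was -0.0065 without ISC_22mth replicate 2 and -0.33 under total counts. Gars had 25.0 and 27.5 CPM in young and 27.2 and 29.2 CPM in old pools.

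The multi-synthetase complex was covered by 9 members, the enzymes Eprs, Iars, Lars, Qars, Rars, Kars and Dars and the scaffolds Aimp1 and Aimp2. None was called. By sign 8 of 9 were positive, where 50.5% of all genes were below 0, and the exception was Aimp2. Their log2 fold changes had a median of 0.10, but under total counts 0 of 9 were positive, with a median of -0.38 and 5 called lower, beside the shift of all genes to -0.50. Eprs, which charges both glutamate and proline, had 117 and 132 CPM in young and 136 and 129 CPM in old pools.

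Aimp2 (chr5:143902704-143909847, - strand), which tethers several enzymes of the complex, had 4.07 and 5.30 CPM in young and 3.48 and 2.95 CPM in old pools. The ages did not overlap, yet the log2 fold change of -0.54 (SE 0.32) was within the error (FDR 0.409, edgeR) on 36 to 80 reads a pool. With a pool left out it ran from -0.72, without ISC_2mth replicate 1, to -0.34, without ISC_2mth replicate 2. Its exons share 487 bases (29.4%) with Eif2ak1 on the other strand, a gene with a log2 fold change of 0.27 (FDR 0.461). Aimp1, the other scaffold, stood at 17.5 and 13.3 CPM in young and 16.9 and 19.7 CPM in old pools, and its ages overlapped.

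The 5 cytosolic and dual genes with the ATF4 core in their promoter window are those whose sequences are printed above. Their log2 fold changes ran from -0.07 (Aars) to 0.24 (Tars) with a median of 0.10, and the 7 matched genes without it had a median of 0.09. Atf4 itself had 41.3 and 45.3 CPM in young and 54.3 and 59.2 CPM in old pools, and its log2 fold change of 0.39 did not pass (FDR 0.131, edgeR) and was -0.10 under total counts. Of 32 amino acid response genes tested, Atf4 included, 0 rose and 2 fell, with a median of -0.04. Beside this list and those below, 1.63% of all genes tested rose and 0.628% fell at the same threshold.

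The amino acid response genes that fell were Slc7a5, a transporter of leucine and other large neutral amino acids, and Ddit4, an inhibitor of mTORC1. Slc7a5 had 17.0 and 16.4 CPM in young and 9.69 and 10.2 CPM in old pools (log2 fold change -0.75, SE 0.19, FDR 0.0405, edgeR). Ddit4 fell by 0.56 on the log2 scale, from 57.1 and 53.8 CPM to 33.2 and 41.9 CPM. Each was called in 11 of 17 alternative fits and not with offsets for GC content and length (FDR 0.116 and 0.0932).

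Uncharged tRNA is sensed by the kinase GCN2, and among 14 genes of the eIF2 kinases and their partners, 1 fell and 0 rose. This was Gcn1l1, the activator of GCN2, with 28.1 and 28.2 CPM in young and 18.8 and 14.6 CPM in old pools (log2 fold change -0.75, SE 0.17, FDR 0.0218, edgeR). It was called in 14 of 17 alternatives, and its FDR was 0.154 with the GC and length offsets.

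Among the 12 partners of tRNA charging tested, Gatc rose and none fell. Gatc is a subunit of the mitochondrial amidotransferase that makes glutaminyl-tRNA, a tRNA that mitochondria do not charge directly. It stood at 27.9 and 37.1 CPM in young and 49.7 and 59.8 CPM in old pools, a log2 fold change of 0.75 (SE 0.15, FDR 0.0141, edgeR). The other subunits, Gatb and Qrsl1, had values of -0.09 and -0.13 that did not pass. Under total counts, where the median of all genes was -0.50, Gatc was at 0.27. Gatc was called in 13 of 17 alternatives, with an FDR of 0.0506 under the offsets.

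Ssb, which protects the ends of newly made tRNAs, was the 1 gene called among 28 of tRNA end processing. It rose from 44.7 and 44.6 CPM to 70.9 and 69.0 CPM, a log2 fold change of 0.65 (SE 0.13, FDR 0.0102, edgeR). Its FDR was 0.0909 with the offsets. Under total counts, where the median of all genes was -0.50, Ssb was at 0.16. None of the 65 tRNA modification genes tested and none of the 8 cytosolic elongation factors was called.

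Of the 22 mitochondrial tRNA genes, which encode the substrates of the mitochondrial synthetases, 9 were tested, and 3 of these were higher in old ISCs and none lower past the threshold. Some, such as mt-Tn (3 and 4 reads in young, 17 and 4 in old), met the requirement for testing only through an old pool. With no such requirement, 13 of the 22 had a positive and 2 a negative log2 fold change. The leucine tRNA gene mt-Tl1, which encodes a substrate of LARS2, had 13.6 and 11.3 CPM in young and 34.1 and 37.1 CPM in old pools. Its log2 fold change was 1.51 (SE 0.16, FDR 1.7e-05, edgeR), opposite in sign to that of Lars2. Gene counts do not separate mature tRNA from longer transcripts that span a tRNA gene, so these values are not levels of mature tRNA.

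The other calls among these tRNA genes were mt-Tc (cysteine) at 2.70 and mt-Tm (methionine) at 1.43, on 8 to 109 and 20 to 69 reads a pool. The reads of mt-Tc were 109 and 28 in the old pools, and its value ran from 1.49 to 3.33 over 16 alternatives, of which 13 called it. The call of mt-Tm was lost in 9 of 17 alternatives, the GC and length offsets among them (FDR 0.0682, edgeR). Their synthetase genes Cars2 and Mars2 stood at -0.22 and 0.04. At the low end was mt-Tf (phenylalanine) at 0.22, which did not pass (FDR 0.667, edgeR) and turned to -0.27 under total counts. The total share of reads on mitochondrially encoded genes was also higher in old pools, as given above, and its part in these values was not tested.

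**Figure D4:**
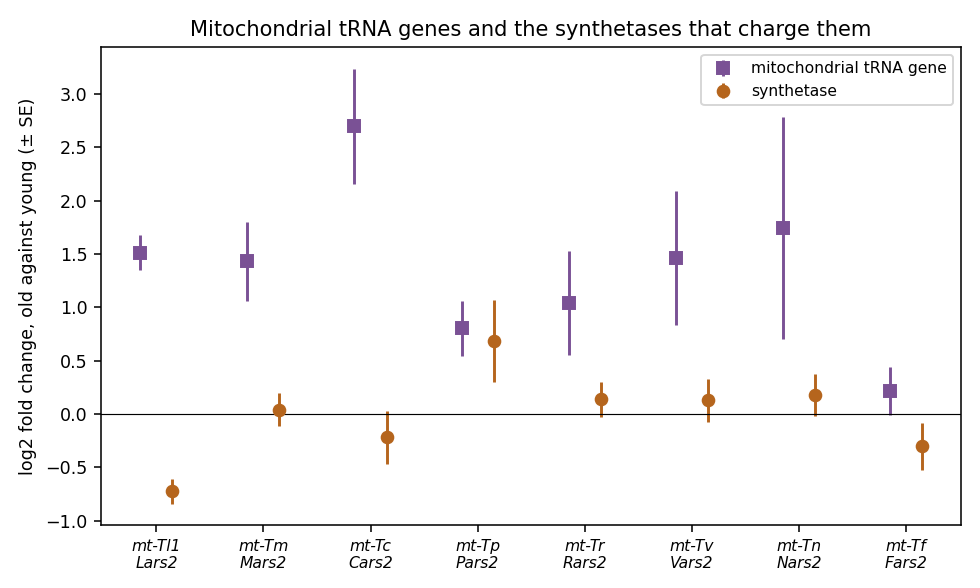
Log2 fold change, old against young, with its SE, of 8 mitochondrial tRNA genes (squares) and of the synthetase gene for the same amino acid (circles). The tRNA genes lie between 0.22 and 2.70, and the synthetases between -0.72 for Lars2 and 0.69 for Pars2. The counts do not separate mature tRNA from longer transcripts that span a tRNA gene.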

How the data were processed

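The authors trimmed single-end reads with Trimmomatic 0.30, aligned them to GRCm38 with STAR 2.4.2a and counted exonic reads of GENCODE vM15 genes with featureCounts. The deposited values are raw counts per gene. Members and lists were chosen with earlier results of these data known, and related lists were written by hand. The filter of the study was applied (over 5 reads and over 1 CPM in any library), and ages were compared with edgeR 4.0.16 (R 4.3.3) by TMM and the quasi-likelihood test, without covariates, with Benjamini-Hochberg FDR 0.05 over 13692 genes. CPM are normalized by TMM. Alternatives used limma 3.58.1, DESeq2 1.42.0, other scalings, filters, a replicate block, GC and length offsets, and each pool left out. The fit was tested on simulated data. Replicate pools are separate by the labels, and a check for duplicate libraries found none (chi-square per gene 9.42 and 7.11). A floor of 3 counts was 0.188 to 0.257 CPM of the total counts, before TMM. Positions, overlaps and shared 50-base stretches came from GENCODE vM21 on GRCm38, matched by symbol for 47976 of 52459 genes.

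Statistics are given for members with FDR or p under 0.05 and for the member of lowest p in each compartment, pool values also for the extremes of level, and for related lists at most the 3 called genes of lowest p. Values of related genes outside that rule, Atf4, mt-Tf, mt-Tn, Gatb, Qrsl1 and Irf1 among them, were added. Pool values of other members were added to show the groups, and the statistics or values of Farsb, Pars2, Tars, Wars, Eprs, Gars, Mars2, Aimp1 and Fars2 were chosen after their values were seen. Same-numbered pools came from different animals, and their deviations were not correlated (r = -0.00015 across genes), so the numbers do not pair the samples. Some items are not reported here.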

Additional observations from a re-analysis of the deposited data

How the results depend on the processing

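Lars2 was lower and past the threshold in all 17 alternatives, with log2 fold changes from -1.22 to -0.58 and FDR from 6.07e-10 to 0.0356. It was the only member called, except without ISC_22mth replicate 1 (Iars2 too) and under total counts, where 18 others were called lower. Genes called numbered 309, and were 4650 under total counts, 197 by DESeq2, 611 by the likelihood ratio test, 126 with GC and length offsets, and 147 to 691 with a pool left out. With the replicate block they were 623, and 75 with block and offsets together. The numbers share no animals and the block changed no member's call. Under total counts 19 members were called lower, 0 had both old pools above and 34 below both young pools, and the medians were -0.41 (cytosolic and dual) and -0.42 (mitochondrial). Iars2 was then at -0.069 and Kars at -0.33, Farsa at -1.02 (FDR 0.0051) and Aimp2 at -1.03 (FDR 0.0172). With a pool left out, members called higher were 0 to 1, those above 13 to 21 and those below 8 to 16, the cytosolic and dual median -0.0065 to 0.13, and Kars -0.0065 to 0.30. Calls in related lists, 9 with Gatc counted in both its lists, were 59 under total counts, 2 with offsets, 1 with block and offsets, and 3 to 16 with a pool left out. These counts cover the lists of tRNA charging, processing, modification and translation, mitochondrial tRNA genes, the amino acid response and the eIF2 kinases. Ribosomal RNA-like loci, interferon-stimulated genes and cell type markers are not included. With offsets, 3 ribosomal RNA-like loci were called lower and 3 interferon-stimulated genes higher. The causes of the differences between settings were not tested, beyond the fewer pools or the shift of all genes under total counts. With a pool left out, the lone pool was assumed to vary like the other age. Depth limits the genes under about 100 reads a pool, Aars2, Aimp2, Cars, Farsa and Pars2 among them.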

Other observations

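Mars, a synthetase gene of the table that is not on the list, was looked up after the other values were known. Mars had 274 and 295 reads in young and 249 and 228 in old pools, a log2 fold change of -0.04 (FDR 0.939, edgeR).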
